A study of Mus musculus with 5 samples.

Results

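The expression of 10 genes of the Wnt pathway was followed on Affymetrix expression arrays of 4 mouse medulloblastomas, which are tumours of the cerebellum, and 1 cerebellum at P5, read as postnatal day 5. The genes are the secreted antagonists Sfrp1, Sfrp2, Wif1 and Dkk3, the receptor Fzd1, the effectors Ctnnb1, Lef1 and Tcf7l2, and the feedback targets Axin2 and Nkd1. They were found as every probe set whose single annotated gene symbol is one of these 10 names, which gave 26 of the 34945 probe sets that carry 1 symbol, for 10 of 18193 genes. The titles of medulloblastomas 1 and 2 start with ken, and those of medulloblastomas 3 and 4 and of the cerebellum start with hmk. The labels give no genotype, strain, treatment, sex or tumour age for any array. By its title the series deals with Cxcr6, a chemokine receptor, and with the response of tumours to blocking Smoothened, but no array could be assigned to either condition. The comparison below is therefore of the 4 tumours with the single P5 cerebellum, and age and tumour state cannot be told apart.

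In canonical Wnt signalling a secreted Wnt protein binds a Frizzled receptor and its co-receptor, which stops a cytoplasmic destruction complex from marking beta-catenin for degradation. Beta-catenin then enters the nucleus and turns on genes together with the DNA-binding proteins of the TCF/LEF family. Among those genes are inhibitors of the same pathway, such as Axin2 and Nkd1, so their RNA is commonly read as a sign of signalling. Secreted antagonists act outside the cell, by binding Wnt proteins or their co-receptor. In the brain Wnt signals pattern the border of midbrain and hindbrain, from which the cerebellum arises, and they drive the growth of brain vessels. Human medulloblastomas include a subgroup with activating changes in beta-catenin, and another driven by Hedgehog signalling.

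To show the regulatory sequence upstream of these genes, the 250 bases before the annotated start are given for the dim members Lef1 and Wif1 and for the bright member Ctnnb1. These windows end just before the first base of the annotated gene. They come from RefSeq (GRCm38.p6, plus strand, 5′ to 3′), and capitals mark the word CTTTG or its reverse complement CAAAG, the core of the TCF/LEF binding motif.
Lef1, chr3:131110047-131110296: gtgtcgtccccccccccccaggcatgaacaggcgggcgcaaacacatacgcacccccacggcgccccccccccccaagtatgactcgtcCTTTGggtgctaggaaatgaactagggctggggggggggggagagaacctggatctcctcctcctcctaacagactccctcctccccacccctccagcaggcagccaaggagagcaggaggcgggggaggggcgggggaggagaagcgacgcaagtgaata
Wif1, chr10:121033754-121034003: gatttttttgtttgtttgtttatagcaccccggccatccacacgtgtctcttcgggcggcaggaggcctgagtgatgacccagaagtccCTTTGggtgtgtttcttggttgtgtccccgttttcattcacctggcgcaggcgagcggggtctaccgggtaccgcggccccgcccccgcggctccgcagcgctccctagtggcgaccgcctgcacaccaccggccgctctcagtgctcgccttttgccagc
Ctnnb1, chr9:120933150-120933399: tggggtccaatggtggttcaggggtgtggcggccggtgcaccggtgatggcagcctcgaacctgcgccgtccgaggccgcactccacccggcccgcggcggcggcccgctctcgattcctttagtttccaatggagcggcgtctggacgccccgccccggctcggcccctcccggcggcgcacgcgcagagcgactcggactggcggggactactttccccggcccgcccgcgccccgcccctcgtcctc
The Lef1 and Wif1 windows each held the word 1 time, and the Ctnnb1 window did not hold it. The RefSeq table listed 13 starts for 8 of the 10 members, of which some overlap. The word was found on either strand at 8 of these 13 starts, in Wif1, Fzd1, Lef1 and Tcf7l2, and not before the listed starts of Sfrp2, Axin2, Nkd1 and Ctnnb1. It stood in 48.6% of all 32851 windows of this length, so its presence describes the letters only. Sfrp1 and Dkk3 were not matched.

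In the tumours the secreted antagonists Sfrp1 and Sfrp2, the receptor Fzd1 and the feedback inhibitor Nkd1 read above the P5 cerebellum on all 4 arrays. Dkk3, Tcf7l2 and the feedback inhibitor Axin2 read below it on all 4, and Ctnnb1, Lef1 and Wif1 lay on both sides. For each gene the brightest probe set, by mean over the 5 arrays, was used here, and differences are means of the 4 tumours minus the cerebellum on the log2(signal + 32) scale, which understates the change of dim genes. All 10 members had a mean signal of at least 100 and were tested. None of the 10 passed limma's test at a Benjamini-Hochberg adjusted p under 0.05 over the 14109 genes tested, of which 0.489% passed in either direction. The lowest adjusted p among the members was 0.145, for Sfrp2. At an unadjusted p under 0.05, Sfrp2 and Nkd1 were higher (7.72% of all genes) and Dkk3 was lower (7.44% of all genes). The 4 members above the cerebellum in all 4 tumours compare with 25.1% of all genes, and the 3 below with 30.8%, and with 10 genes neither share is read as a result. No member was at least 2-fold above in every tumour, as 2.01% of all genes were, or at least 2-fold below, as 2.63% were. With 1 cerebellum the spread comes from the tumours alone, and the smallest p that exact permutation can give for 4 arrays and 1 is 0.2. Nothing in the labels says that the tumours came from separate mice, so the p-values measure the spread between these arrays.

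**Figure D1:**
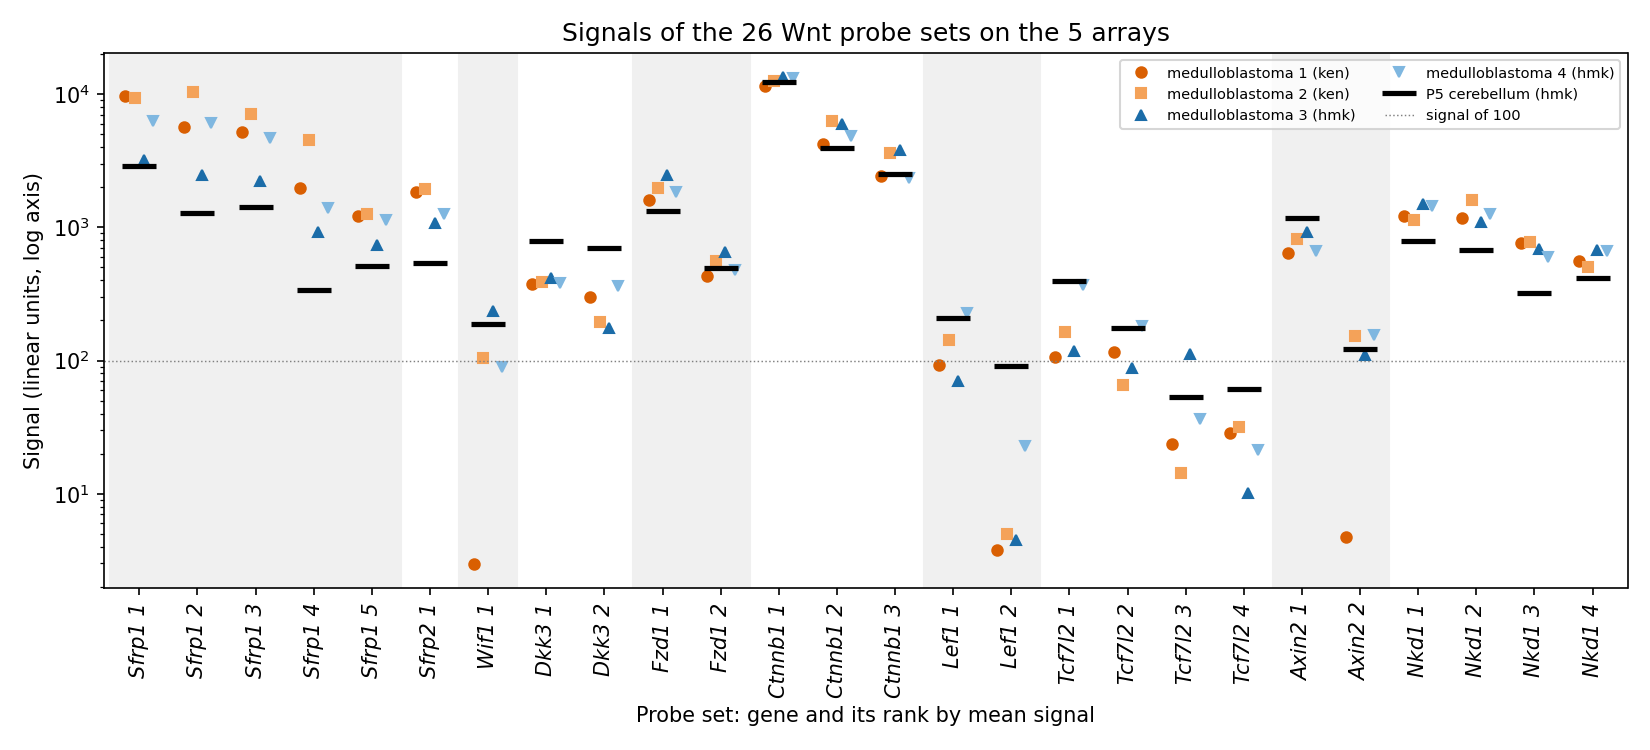
Signal of each of the 26 probe sets on the 5 arrays, on a log axis, with the P5 cerebellum as a black bar and the 4 tumours as points coloured by the prefix of their title. For Sfrp1, Sfrp2 and Nkd1 every tumour point lies above the bar, and for Dkk3 every point lies below it.

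Sfrp1, a secreted protein with a Frizzled-like domain that binds Wnt proteins, is the member with the most probe sets on the array. Its brightest probe set (1428136_at) read 9661, 9394, 3172 and 6232 in medulloblastomas 1 to 4 and 2894 in the P5 cerebellum. All tumours were above the cerebellum, medulloblastoma 3 only just. The difference was 1.16 ± 0.54 (SE), with a 95% interval of -0.09 to 2.41 (limma, adjusted p = 0.360). At 3 of its 4 other probe sets the gap was wider. The second (1448395_at) read 5667, 10280, 2447 and 6086 against 1281, a difference of 2.06 ± 0.61. The third (1460187_at) read 5207, 7023, 2243 and 4657 against 1415, a difference of 1.62 ± 0.51. The fourth (1416594_at) read 1972, 4537, 924 and 1390 against 340, a difference of 2.34 ± 0.69, and is the only one of the 5 at least 2-fold above the cerebellum in every tumour. The fifth (1438620_x_at), of a kind that can also bind other transcripts, read 1220, 1260, 740 and 1134 against 510, a difference of 1.02 ± 0.35. Medulloblastoma 3 was the lowest tumour at all 5 probe sets, and the groups overlapped at none. The probe sets measure the same RNA and are no replicates of each other. In a fit of every probe set, adjusted over the 25843 tested, the 4 other Sfrp1 probe sets had adjusted p-values between 0.220 and 0.276. With all probe sets of a gene averaged, the Sfrp1 difference was 1.64 (limma, adjusted p = 0.247).

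The Sfrp1 signals of the tumours were also set against the prefix of their titles. At the brightest probe set the ken tumours averaged 1.71 above the cerebellum and the hmk tumours 0.61, and both ken tumours were above both hmk tumours there and at 3 of the 4 others. How many of all genes split in this way was not counted, so this order is not read as a result about Sfrp1. At the brightest probe sets of Nkd1 and Ctnnb1 both ken tumours were below both hmk tumours. At the third Nkd1 probe set they were above. The prefix may mark a batch, but the labels do not say what it stands for. Summed markers of several cell types, given below, also differed by prefix, and their part in this order was not tested. The cerebellum is an hmk array, so 0.61 is the difference within 1 prefix, and no ken cerebellum was analysed here. Within the hmk arrays the fourth Sfrp1 probe set differed by 1.65.

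Sfrp2, a close relative that also binds Wnt proteins, had 1 probe set, at 1829, 1938, 1076 and 1263 in medulloblastomas 1 to 4 and 542 in the P5 cerebellum. Every tumour was at least 1.98 times the cerebellum, and the groups did not overlap. The difference was 1.40 ± 0.36, with a 95% interval of 0.57 to 2.23 (limma, adjusted p = 0.145). Both ken tumours were above both hmk tumours and medulloblastoma 3 was the lowest, as for Sfrp1 and with the same limit. Within the hmk arrays the difference was 1.06 and passed (limma, adjusted p = 0.0288), in a fit whose spread comes from 1 pair of tumours and in which 11.9% of all genes tested passed, so little is read from this call.

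Dkk3, a secreted member of the Dickkopf family whose part in Wnt signalling is less settled than that of its relatives, was lower in every tumour. Its brighter probe set (1448669_at) read 375, 388, 416 and 385 against 784, close to one another among the tumours. The SD of the 4 tumours was 0.06 on the log2 scale, and 1.18% of all genes tested had a smaller one. The difference was -0.95 ± 0.29, with a 95% interval of -1.61 to -0.28 (limma, adjusted p = 0.210), and it was -0.98 for the ken and -0.92 for the hmk tumours. The second probe set (1417312_at) read 299, 196, 175 and 365 against 702, a difference of -1.39 ± 0.45. Here too all tumours lay below the cerebellum, though they were spread more widely.

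Wif1, which binds Wnt proteins outside the cell and is among the genes most raised in the human WNT subgroup, was dim. Its single probe set read 2.99, 105, 237 and 89.0 for medulloblastomas 1 to 4 and 187 for the cerebellum. Medulloblastoma 3 was above the cerebellum and the other 3 tumours were below. The difference of -0.97 ± 1.03 (limma, adjusted p = 0.674) had a 95% interval from -3.35 to 1.40. It was -0.42 without medulloblastoma 1, whose signal is under the constant of 32 added before taking logs, and -0.28 within the hmk arrays.

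Fzd1, a Frizzled receptor for Wnt proteins, read 1598, 1984, 2489 and 1850 against 1334 at its brighter probe set. All tumours were above the cerebellum, by a mean of 0.54 ± 0.28 (limma, adjusted p = 0.395). The dimmer probe set read 429, 555, 653 and 475 against 497, with tumours on both sides and a difference of 0.06 ± 0.33. Averaged over both, Fzd1 differed by 0.30.

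Ctnnb1, which encodes beta-catenin, was level at its brightest probe set. It read 11468, 12482, 13350 and 13154, the cerebellum 12329, a difference of 0.03 ± 0.19 with a 95% interval of -0.41 to 0.47 (limma, adjusted p = 0.953). The sign turned under quantile normalization, to -0.20. The second probe set (1450008_a_at) read 4188, 6257, 5933 and 4823 against 3955, a difference of 0.40 ± 0.27 with all tumours above. The third (1430533_a_at) read 2441, 3636, 3771 and 2349 against 2490, with tumours on both sides (0.26 ± 0.33). At these 2 dimmer probe sets medulloblastomas 2 and 3 were higher than medulloblastomas 1 and 4. The arrays measure RNA, whereas the pathway acts on the amount and place of the protein.

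Lef1 and Tcf7l2, the DNA-binding partners of beta-catenin, read low in 3 tumours and close to the cerebellum in medulloblastoma 4. Lef1 read 92.5, 142, 69.7 and 228 against 209 at its brighter probe set. Medulloblastoma 4 was above the cerebellum and the other tumours below, with a difference of -0.64 ± 0.64 (limma, adjusted p = 0.651). The second Lef1 probe set (1421299_a_at) read 3.80, 5.02, 4.51 and 23.0 against 90.2, below the cerebellum in all 4 tumours, but its mean signal was under 100 and it was not tested. Tcf7l2 read 106, 165, 117 and 369 against 392, all below the cerebellum. Medulloblastoma 4 was nearly level with it, and under scaling to equal medians it no longer lay below. The difference was -1.08 ± 0.62, with a 95% interval of -2.52 to 0.36 (limma, adjusted p = 0.440). The second Tcf7l2 probe set (1429427_s_at) read 115, 65.0, 87.9 and 183 against 174, a difference of -0.57 ± 0.63, again with medulloblastoma 4 at the level of the cerebellum. The other 2 Tcf7l2 probe sets had mean signals of 47.6 and 30.5 and were not tested.

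The feedback inhibitors Axin2 and Nkd1, both commonly used as readouts of beta-catenin, lay on opposite sides of the cerebellum. Axin2, a scaffold of the destruction complex, read 640, 820, 916 and 663 against 1183 at its brighter probe set (1436845_at). Every tumour was below, with a difference of -0.63 ± 0.30 and a 95% interval of -1.31 to 0.05 (limma, adjusted p = 0.359). The dim second probe set (1421341_at) read 4.74, 154, 110 and 156 against 121, on both sides of it. Its difference of -0.40 ± 0.98 became 0.16 without medulloblastoma 1.

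Nkd1, which binds Dishevelled and damps Wnt signals, was above the cerebellum in all 4 tumours at each of its 4 probe sets. The brightest (1429506_at) read 1205, 1135, 1496 and 1439 against 794, a difference of 0.70 ± 0.26 with a 95% interval of 0.09 to 1.31 (limma, adjusted p = 0.282). The second (1417278_a_at) read 1174, 1602, 1101 and 1268 against 670, a difference of 0.89 ± 0.29. The third (1440446_at) read 762, 778, 684 and 603 against 324, a difference of 1.05 ± 0.30. The fourth (1429507_at) read 557, 507, 673 and 659 against 417, a difference of 0.48 ± 0.31. The groups overlapped at no Nkd1 probe set. Medulloblastoma 3 was the highest tumour at the brightest and the fourth, and medulloblastoma 2 at the second and the third. Within the hmk arrays the brightest differed by 0.86 and passed (limma, adjusted p = 0.0420), in the same fit in which 11.9% of all genes did. In the fit of probe sets within the hmk arrays no Nkd1 probe set passed, while 7.87% of all probe sets did.

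Over all members, 23 of the 26 probe sets had a mean signal of at least 100. Of these, 12 were above the cerebellum in all 4 tumours and 4 below, whereas 25.4% and 28.4% of the 25843 probe sets tested were. Of the 12, 9 belong to Sfrp1 and Nkd1, so the probe sets are not separate genes. None passed at an adjusted p under 0.05 (limma), as 0.248% of the probe sets tested did. At an unadjusted p under 0.05 the members had 8 higher (7.49% of all probe sets) and 2 lower (6.19%). The 8 belong to Sfrp1, Sfrp2 and Nkd1 alone and the 2 to Dkk3, so neither count is read as a result.

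**Figure D2:**
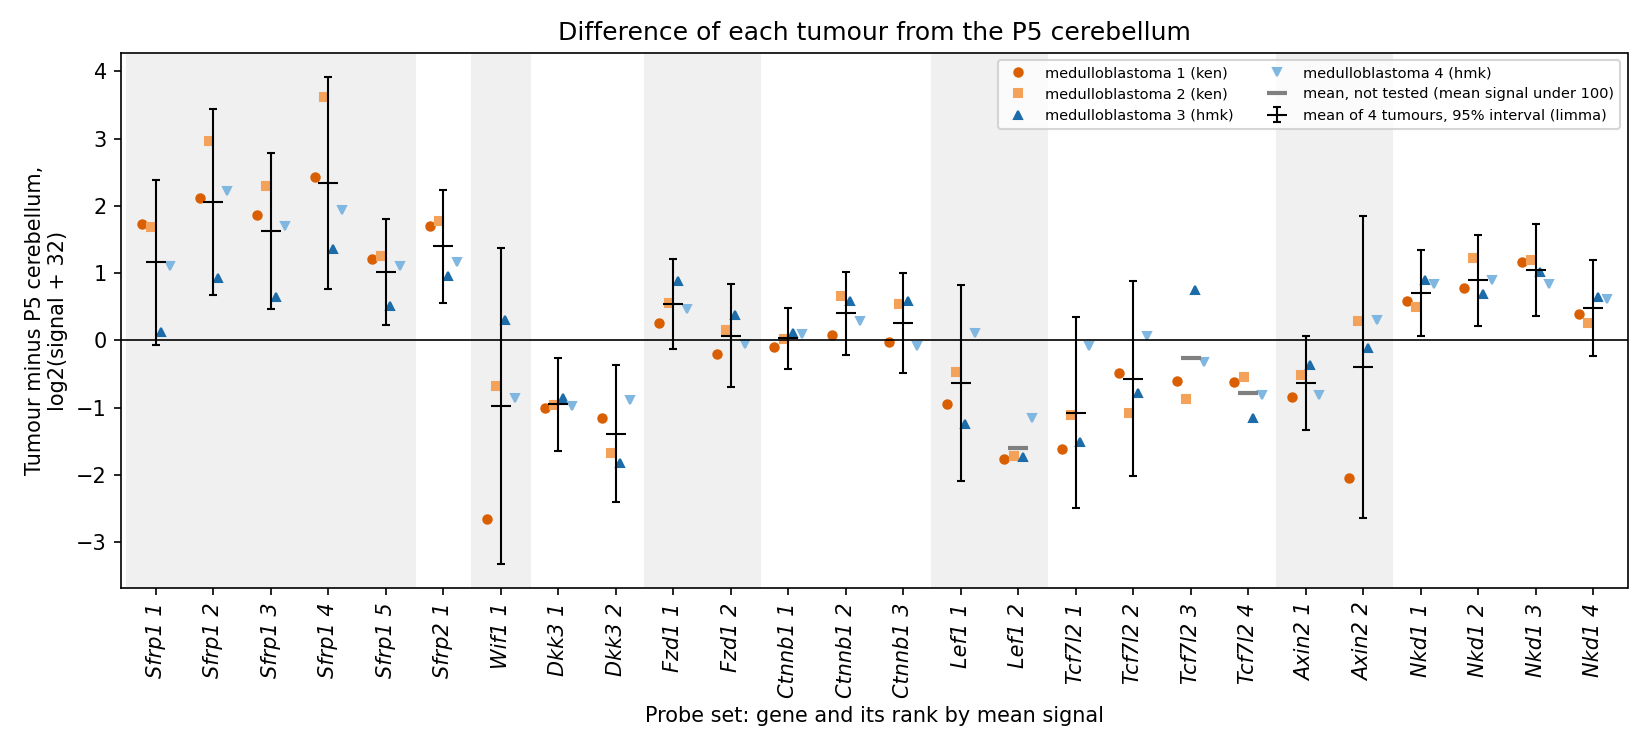
Difference of each tumour from the P5 cerebellum on the log2(signal + 32) scale for the 26 probe sets, with the mean and its 95% interval from limma for the 23 tested and a grey bar for the mean of the 3 not tested. The intervals of Sfrp2 and of both Dkk3 probe sets exclude 0. So do those of the Sfrp1 probe sets other than the brightest and of the Nkd1 probe sets other than the dimmest. Those of the brightest Sfrp1 and the dimmest Nkd1 probe set include 0. None of the tested probe sets passed after adjustment.

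Markers of several other cell types read apart from the cerebellum in the same tumours. Over all genes tested, 25.1% were above the cerebellum in all 4 tumours and 30.8% below. Marker counts near these shares are not read as a result. Of 10 astrocyte and Bergmann glia markers, 7 were below the cerebellum in all 4 tumours and 2 above, and their summed signal was 25298 to 29893 in the tumours against 73445. Of 10 endothelial markers 9 were below in all 4 tumours and none above, with sums of 2622 to 3837 against 7205. Of 10 meningeal and fibroblast markers 6 were below and none above (8568 to 15578 against 33885), and of 9 Purkinje cell and interneuron markers 7 were below and 1 above (9318 to 31760 against 43873). These lists read lower beside Dkk3, Axin2 and Tcf7l2, the members below the cerebellum in all 4 tumours at their brightest probe set. Ctnnb1, Lef1 and Wif1 lay on both sides. All 10 microglia markers were above in all 4 tumours (17006 to 18718 against 6639). At their brightest probe set Sfrp1, Sfrp2, Fzd1 and Nkd1 also read higher in all 4, but the dimmer Fzd1 probe set lay on both sides. Granule neuron precursor markers had sums of 51919 to 54074 against 52667, with 4 of 10 above and 4 below in all 4 tumours. Oligodendrocyte markers summed to 20553 to 41069 against 20538 (4 of 9 above, 1 below). Choroid plexus markers summed to 34535, 17096, 4969 and 5623 in medulloblastomas 1 to 4 against 14343 (1 of 7 above, 2 below). Thalamic and midbrain neuron markers summed to 2809 to 5290 against 4461 (2 of 7 above, 1 below). The choroid plexus sum was above the cerebellum in both ken tumours and below it in both hmk tumours. Oligodendrocyte, Purkinje cell and interneuron, thalamic and midbrain, and astrocyte sums were also higher in both ken tumours than in both hmk tumours. Granule neuron precursor and microglia sums were lower in both ken tumours, and the other lists overlapped. No marker was at 0, and those with a mean signal under 100 were Kl, Gbx2 and Gata3. The part of these cell types in the values of the members was not tested. In bulk samples fewer cells of a type and less RNA per cell cannot be told apart.

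The rest of the pathway was described through 8 lists by role, with 133 different entries, of which 124 had a probe set with a single symbol and 97 were tested. Some entries are older names of others. Over the 97 genes the median difference was -0.08, against -0.07 over all genes tested. In all 4 tumours 23 of them were above the cerebellum (25.1% of all genes) and 34 below (30.8%), and 1 passed the test over all genes, in the lower direction (0.177% of all genes passed so). At an unadjusted p under 0.05, 10 were higher (7.72% of all genes) and 14 lower (7.44%).

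Among 11 Wnt ligand and secretion genes the median was -0.08, with 3 above and 4 below the cerebellum in all 4 tumours and none passing the test. Wnt4 read 354, 789, 907 and 902 against 50.8, well above the cerebellum in every tumour. The difference was 3.13 ± 0.51 and just missed the threshold (limma, adjusted p = 0.0509). It passed in 7 of 18 settings. Without medulloblastoma 1 the adjusted p was 0.00133, in a fit that called 5.89% of all genes, and without medulloblastomas 2, 3 and 4 in turn it was 0.173, 0.113 and 0.146. Those 3 fits called 0.0142%, 0.113% and 0% of all genes. The second Wnt4 probe set also read higher, at 355, 394, 669 and 701 against 147. Wnt7b, which signals to brain endothelium, read 376, 548, 435 and 554 against 1246 (-1.34 ± 0.32, limma, adjusted p = 0.125). The probe sets of Wnt6 disagreed. The brighter read 15.4, 50.5, 99.1 and 187 against 377 (-1.99 ± 0.86) and the dimmer was higher by 2.12, so no direction is given.

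Of 13 receptors and co-receptors other than Fzd1, 3 were above and 4 below in all 4 tumours, with a median of 0.11 and none past the threshold. The Frizzled receptor gene Fzd7 read 2488, 3141, 2052 and 2757 against 796, a difference of 1.66 ± 0.28 (limma, adjusted p = 0.0535). Its dim second probe set did not show this (63.1, 232, 282 and 17.0 against 98.3). The receptor tyrosine kinase gene Ror2 read 412, 306, 601 and 287 against 186 (0.94 ± 0.44). Ptk7, a co-receptor of planar polarity signalling, read 80.2, 177, 587 and 312 against 424 (-0.78 ± 0.80), with medulloblastoma 3 above the cerebellum.

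The 12 other antagonists had a median of 0.17, with 4 above and 4 below in all 4 tumours and none past the threshold. Shisa2, which holds Frizzled receptors inside the cell, read 647, 1131, 1128 and 1086 against 260 (1.79 ± 0.36, limma, adjusted p = 0.0974), and its second probe set read 325, 680, 524 and 695 against 38.9. Draxin, a guidance protein that also antagonizes Wnt, read 5256, 8271, 4212 and 4993 against 1841 (1.56 ± 0.34), but its dimmer probe set differed by -0.22. Igfbp4, a binding protein of insulin-like growth factors with Wnt-blocking activity, read 854, 583, 1121 and 971 against 2859 (-1.70 ± 0.35), and its 5 other probe sets were lower as well, by means from -2.27 to -0.24.

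The R-spondin module, which controls how many Frizzled receptors stay at the surface, had 6 tested genes, with 2 above, 1 below and a median of -0.14. The ubiquitin ligase gene Rnf43 read 84.9, 156, 157 and 208 against 33.2 (1.45 ± 0.62), and its relative Znrf3 read 546, 586, 640 and 614 against 816 (-0.43 ± 0.27). Rspo2 read 110, 166, 131 and 216 against 109 (0.38 ± 0.54). The second, dim probe sets of Znrf3 and Rspo2 had the opposite sign (0.98 and -1.52).

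Of 21 cytoplasmic genes, 4 were above and 7 below in all 4 tumours (median -0.09), and none passed the test. Axin1, the relative of Axin2 that is made without Wnt signals, read 1091, 947, 1250 and 982 against 525 (0.97 ± 0.27, limma, adjusted p = 0.170), so the brighter probe sets of Axin1 and Axin2 lay on opposite sides of the cerebellum. Apc2, a neuronal relative of the destruction complex scaffold, read 781, 632, 702 and 740 against 1687 (-1.21 ± 0.26), with its 3 other probe sets lower too (-2.09 to -1.52). Nkd2, the relative of Nkd1, was dim and its probe sets disagreed, from -1.79 to 1.37.

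Nuclear effectors other than Lef1 and Tcf7l2 had a median of -0.08 over 17 genes, with 4 above and 6 below in all 4 tumours and none past the threshold. Sox17, a factor of endoderm and vessels, read 135, 94.4, 230 and 99.1 against 299 (-1.01 ± 0.56), in the samples in which endothelial markers read lower. The part of endothelial cells in the Sox17 value was not tested. Cby1, a beta-catenin antagonist, read 293, 394, 454 and 397 against 713 (-0.85 ± 0.33), and the co-activator gene Bcl9l read 974, 1132, 622 and 493 against 1407 (-0.85 ± 0.44).

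Genes commonly induced by beta-catenin, other than Axin2, Lef1 and Nkd1, did not lie to one side. Of 19 tested, 5 were above and 8 below in all 4 tumours, the median was -0.04, and none passed. Ccnd1, which encodes cyclin D1 and is also induced by Hedgehog signalling, read 23239, 8391, 9962 and 8033 against 2407 (2.20 ± 0.52, limma, adjusted p = 0.125). Sp5, a transcription factor gene and one of the most direct targets, read 16, 101, 66.0 and 125 against 576, below the cerebellum in every tumour (-2.61 ± 0.76, limma, adjusted p = 0.195). Bmp4 read 121, 45.7, 43.4 and 20.8 against 367 (-2.27 ± 0.79).

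Among 10 tested genes raised in the human WNT subgroup, 2 were above the cerebellum in all 4 tumours and 5 below, with a median of -0.57. That median was -0.18 within the hmk arrays and -0.26 without medulloblastoma 1. Tnc, the tenascin C gene of the extracellular matrix, was the only gene of the 8 lists to pass the test. It fell from 2681 to 126, 177, 321 and 239, a difference of -3.52 ± 0.46 (limma, adjusted p = 0.0262). It did not pass without medulloblastoma 2 (adjusted p = 0.115) or without medulloblastoma 4 (adjusted p = 0.084), nor without the variance trend (adjusted p = 0.103) or the filter on signal (adjusted p = 0.0584). Few or no genes passed in those fits. Of all genes, 0.0142% passed without medulloblastoma 2, 0% without medulloblastoma 4 or the trend, and 0.143% without the filter. Tnc is also made by astrocytes. Of 10 astrocyte and Bergmann glia markers, 7 were below the cerebellum in all 4 tumours and 2 above. The part of these cells in the Tnc value was not tested. Dkk1, Dkk2, Dkk4, Emx2 and Rspo3 of the same list had a mean signal under 100 and were not tested.

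**Figure D3:**
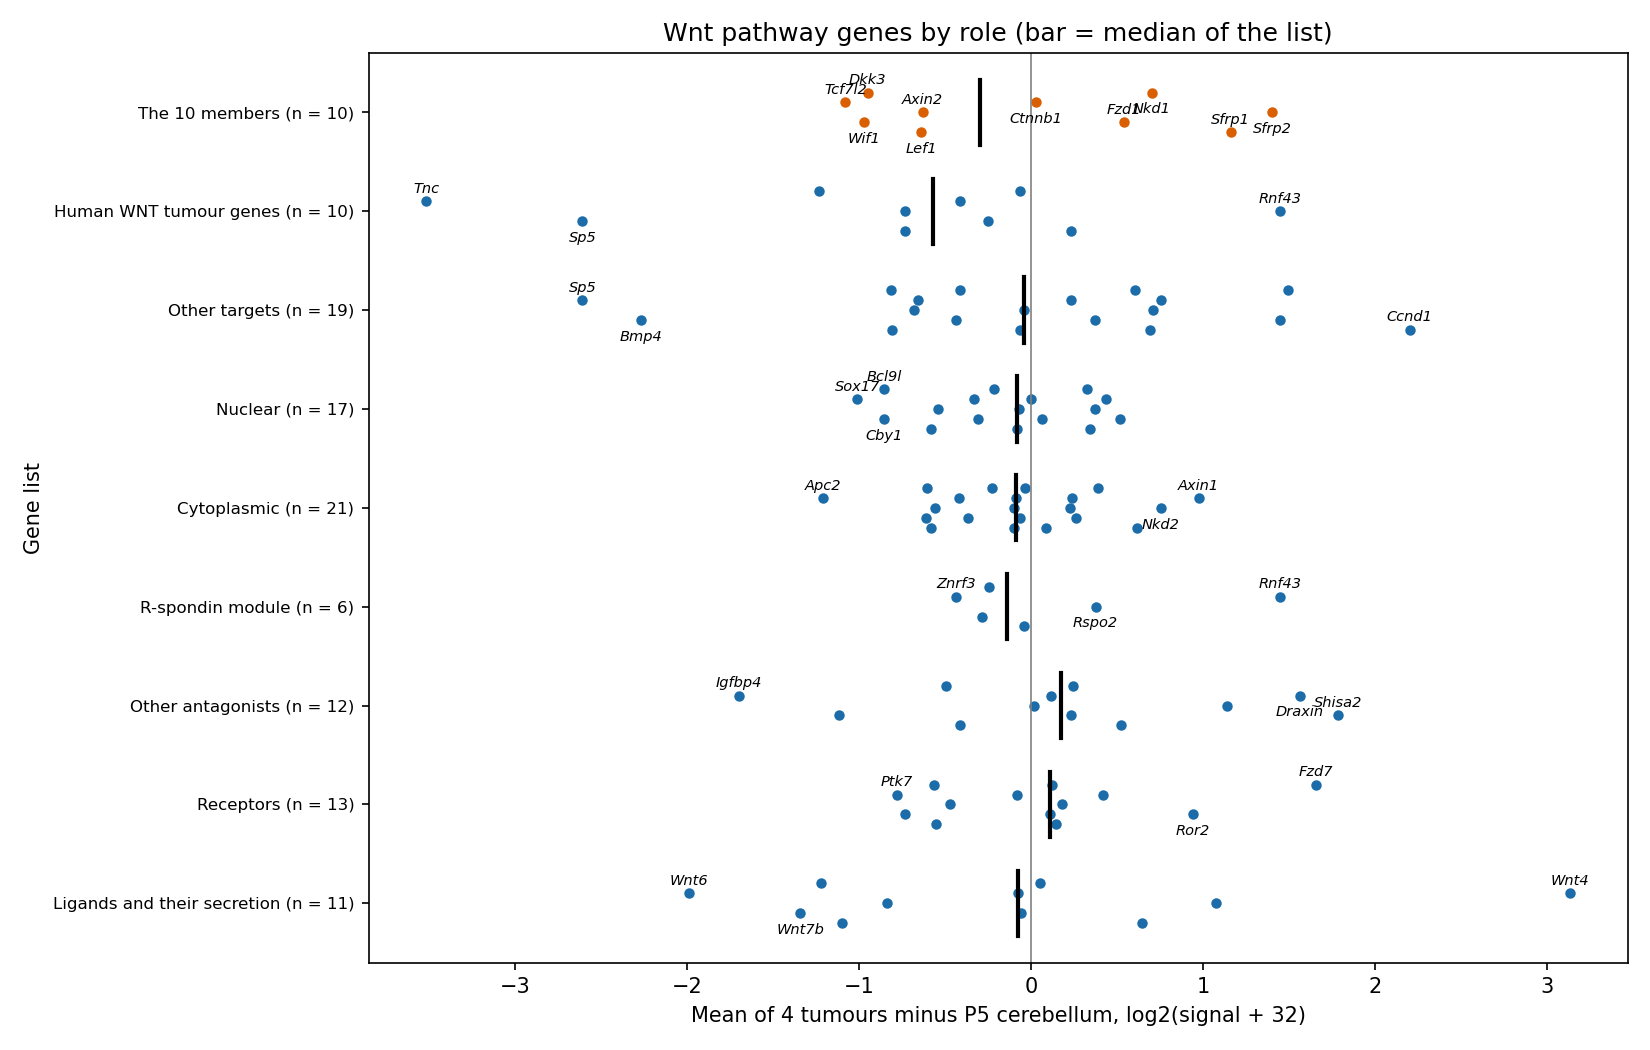
Mean difference of the 4 tumours from the P5 cerebellum, on the log2(signal + 32) scale, for each tested gene of the 8 pathway lists (blue) and the 10 members (orange), with the median of each list as a black bar and the named genes in italics. The list medians lie between -0.57 and 0.17, and the genes of each list spread to both sides of 0.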

How the data were processed

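RNA of 4 medulloblastomas and 1 P5 cerebellum was read on 5 arrays; per the labels it came from a Trizol extraction, except for medulloblastoma 4, where only an Affymetrix standard is named. The authors deposited linear intensities, with 1 value for each probe set and array. MAS5 made them, per the submitters' processing notes, and no tool is stated for medulloblastoma 3. Each array had a trimmed mean of 500.002, that of medulloblastoma 3 included. The ratio of 3' to 5' signal was 1.21 to 1.45 for actin and 0.731 to 0.946 for Gapdh, highest in medulloblastoma 1. Precision is limited by the number of arrays, and detection calls were not used here.

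Symbols came from the platform annotation, checked against RefSeq (GRCm38.p6) by Entrez ID. Probe sets with several symbols (932) and unnamed ones (9160) were left out. Rescaling each array to 500 hardly moved the values. Each gene took its brightest probe set by mean signal, and 14109 genes with a mean of at least 100 were tested on log2(signal + 32) with limma 3.58.1 in R 4.3.3 (eBayes with a trend, two-sided, Benjamini-Hochberg adjusted over all genes). A second fit used 1 row per probe set, and the code was tested on simulated data. The alternatives were other scalings, constants, filters, probe set choices, no trend and each tumour left out. The hmk arrays were also fitted alone, and the ken tumours with the cerebellum, which is an hmk array. The members and lists were chosen with earlier results of these data known. Named were all members and the 3 genes furthest from 0 in each pathway list, with any gene called.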

Additional observations from a re-analysis of the deposited data

Results flagged for a closer look

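Among 48 sets of 4 tumour values examined (the 26 probe sets of the members and 22 named pathway genes), 3 held a tumour far from the other three, and chance gives about 1 in 20. At the dim second probe set of Lef1 medulloblastoma 4 read 23.0 and the others 3.80 to 5.02, a gap of 0.922 of the range on the log2(signal + 32) scale. For Wnt4 medulloblastoma 1 was the lowest, at 354 against 789 to 907 (0.849 of the range). For Shisa2 medulloblastoma 1 was again the lowest, at 647 against 1086 to 1131 (0.927 of the range). Medulloblastoma 1 had the highest ratio of 3' to 5' signal, and the part of this in the 2 values was not tested.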

How the results depend on the processing

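Of 167 values of the members under 17 alternatives, 163 kept their direction and their side of the threshold. Ctnnb1 turned to -0.20 under quantile normalization and to -0.04 with the ken tumours, and Sfrp2 and Nkd1 passed within the hmk arrays, where 2 members were called, as were 11.9% of all genes. In the fit of all probe sets 2 of the members' were called there (7.87% of all probe sets), the fourth of Sfrp1 and that of Sfrp2, but none of Nkd1. With equal medians, which move the median of all genes from -0.07 to 0.12, 5 members had an unadjusted p under 0.05 (16.7% of all genes) and 1 was at least 2-fold from the cerebellum in all 4 tumours (4.49%). With the ken tumours 5 members were below the cerebellum in both (40.2% of all genes) and 3 at least 2-fold from it (7.45%). With each tumour left out in turn 0 to 2 members were at least 2-fold from the cerebellum in all tumours kept. Among the pathway lists the number called was 1, but 2 under quantile normalization, with a constant of 8 or without x_at and s_at probe sets, 3 with equal medians or a floor of 50, 0 without the filter on signal or the variance trend, 21 within the hmk arrays, and 0 to 14 with each tumour left out. The calls over all genes moved too, from 0.489% to 11.9% within the hmk arrays and 5.89% without medulloblastoma 1. The number in the lists was 14 without medulloblastoma 1, and 0 without medulloblastoma 2 or 4. Of all genes 0.0142% passed without medulloblastoma 2, and 0% without medulloblastoma 4 or without the variance trend. Without the filter on signal 0.143% passed. The cause was not tested. The dimmer probe set of Fzd1 turned to -0.03 with the ken tumours and ranged from -0.04 to 0.15 with each tumour left out, lowest without medulloblastoma 3. That of Axin2 turned to 0.10 within the hmk arrays and ranged from -0.63 to 0.16, the latter without medulloblastoma 1. Wnt6 turned to 2.25 under quantile normalization and 2.20 with equal medians, where its other probe set was the brighter. Ptk7 turned to 0.02 within the hmk arrays. With all probe sets averaged Wnt6 turned to 0.06, Znrf3 to 0.27, Rspo2 to -0.57 and Nkd2 to -0.21. List medians moved over the alternatives, from -0.84 (mean signal of at least 200) to 0.10 for ligands, -0.11 to 0.26 for receptors, -0.26 to 0.19 for the R-spondin module and -0.07 to 0.17 for targets; that of the ligands was -0.72 with the ken tumours and -0.46 without medulloblastoma 4. No paired analysis was possible because there is 1 cerebellum and the labels pair no arrays. Signals near or under the constant of 32, as for Wif1, Lef1 and the second Axin2 probe set, limit those differences.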
